A study of Homo sapiens with 12 samples.

Results

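Introns that were largely retained in untreated control A549 cells were followed through RNF113A depletion and Cisplatin treatment. An intron was taken when its mean inclusion level over the 3 libraries of untreated control cells was 40% or more and at least 10 reads covered it in each library of untreated control and untreated depleted cells. The inclusion level is the share of the unspliced form, that is inclusion reads per length of that form over the sum of inclusion and skipping reads, each per length of its form. The rule found 1073 introns in 815 genes, of 3434 introns with enough reads and of 4059 listed for that comparison. Of the 1073, 283 overlapped another of them in the same gene. Such introns can share reads, so counts of introns are not counts of independent events. A549 is a human lung adenocarcinoma line. All 12 libraries came from cells infected with lentivirus and selected with puromycin at 1 µg/ml for 4 days, with an shRNA that targets RNF113A (shRNF113A) or a control one (shControl). Cells were left untreated or received Cisplatin for 20 h, at 25 µg/ml by the sample labels, which gave 4 groups of 3 libraries. The paper's apoptosis assays of depleted A549 cells state 25 µM for 20 h, another unit. The groups are called C (shControl untreated), Ccis (shControl with Cisplatin), D (shRNF113A untreated) and Dcis (shRNF113A with Cisplatin). A single cell line was used. The methods call the 3 samples of a condition biological replicates, without saying how the cultures were kept apart, so p-values measure the spread between these libraries, part of which may be technical.

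RNF113A is a RING finger protein of the active spliceosome, the machine that recognises the 5′ and 3′ splice sites of an intron, cuts it out and joins the exons. An unspliced intron either keeps a transcript in the nucleus or, after export, often carries a premature stop codon. Genes of splicing factors are known for introns that stay in a large share of their own transcripts, and such introns are used to tune the amount of the protein. A table of splicing events also lists as "retained" any stretch that one rare transcript removes and all others keep, such as a piece of an ordinary exon. The inclusion level does not separate these kinds.

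The label of a retained intron was therefore compared with the reference transcript of each gene (the MANE Select transcript of Gencode v44 on GRCh37). The reference transcript removed exactly the listed intron in 90 of the 1073 cases. A further 229 lay inside a larger intron of the reference, 409 held reference exon in part and 275 lay wholly in a reference exon. Another 6 lay outside the reference transcript, and 64 belonged to genes whose identifier matched no reference transcript. The latter are called genes without a reference transcript, although they may have one under another identifier. Of the 409 that were partly exonic, 193 began and ended at splice sites that the reference also uses, so that their junction skips whole reference exons. Of the 275 that were wholly exonic, 122 were coding, 70 lay in the 3′ untranslated region, 28 in the 5′ untranslated region and 55 held both coding and untranslated bases. Of the other 2361 introns with enough reads, 2201 were removed exactly by the reference. The name of a retained intron thus held in the strict sense for 8.39% of the highly included introns, and most of the rest were sequence that the reference transcript keeps in part or whole. For an intron inside a larger one, reads over the junction of the larger intron count for neither form, so its level is relative to the rare junction alone.

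The splice sites of the introns on which the results turn are given here, since they show which of them have the usual GT and AG ends in a usual surrounding. Each 5′ site holds 3 exon and 6 intron bases and each 3′ site 20 intron and 3 exon bases, read 5′ to 3′ on the strand of the gene from GRCh37, the build called hg19 in the files. Capitals mark the first and the last 2 bases of the intron.
U2AF1L4 5′ site, intron 2 of the reference, chr19:36235323-36236025, minus strand: cagGTgaga
U2AF1L4 3′ site of the same intron: ttcctccccgtcttccacAGgag
CDK5RAP3 5′ site, intron 7 of the reference, chr17:46053020-46053234, plus strand: gagGTagag
CDK5RAP3 3′ site: agttgtgtgctctgttgaAGccc
EWSR1 5′ site, inside a larger intron, chr22:29694886-29695184, plus strand: tccGTatgt
EWSR1 3′ site: tccttgtttatcttccttAGttc
LUC7L 5′ site, inside a larger intron, chr16:277336-278331, minus strand: gccGTgagt
LUC7L 3′ site: aaaccacaaatgaatttcAGgag
TAF15 5′ site, gene without a reference transcript, chr17:34147080-34147335, plus strand: caaGTaggt
TAF15 3′ site: tatactcatctaatctttAGgtt
PRPF4B 5′ site, within the 3′ untranslated exon, chr6:4061935-4062446, plus strand: gcgGTaatt
PRPF4B 3′ site: ccttttgatggtgcggaaAGaga
HEXDC 5′ site, intron 10 of the reference, chr17:80398952-80399040, plus strand: tagGCaagc
HEXDC 3′ site: ctcagcagggctctccgcAGgga

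In TRA2A, 3 introns are shown because they end at the same 3′ site and differ only in the 5′ site, all inside a larger reference intron on the minus strand.
TRA2A 5′ site, chr7:23561460-23561739: aatGTatgg
TRA2A 5′ site, chr7:23561460-23561750: tagGTtaag
TRA2A 5′ site, chr7:23561460-23561972: aaaGTatta
TRA2A 3′ site of all of them: aatactgtcttctttgttAGgag

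Splice sites were scored by the sum of log2 base frequencies over 0.25 at each position, from 234827 annotated introns of the authors' gene annotation. The median 5′ score was 6.97 for the highly included introns and 7.62 for the other introns, and the median 3′ score was 7.12 against 8.03. The 5′ scores by structure were 7.47 for introns that the reference removes, 6.87 inside larger introns, 7.45 for the partly exonic and 5.79 for the wholly exonic. GT and AG ends were found in 1052 introns, GC and AG in 19 and AT and AC in 2. Both AT and AC cases, in the apoptosis inhibitor gene BIRC3 and in DAZAP2, lay wholly in a reference exon and had mean levels of 97.5% to 100% in all 4 groups. The median length was 335 nt against 232 nt for the other introns, and the length was a multiple of 3 in 36.1% against 32.3%.

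In untreated control cells the level of the 1073 introns had a median of 92.6%, with quartiles at 77.4% and 98.5%, while the other introns had a median of 3.16%. There were 120 introns between 40% and 60%, 183 up to 80%, 316 up to 95% and 454 above that, of which 116 were at 100%. The SD between the 3 libraries had a median of 3.97 points over the introns, and the median depth was 155 reads per intron and library. By structure, the median level was 58.4% for introns that the reference removes, 87.2% inside larger introns, 94.8% for the partly exonic and 96.8% for the wholly exonic. These levels were used to choose the introns and are given without a test.

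**Figure D1:**
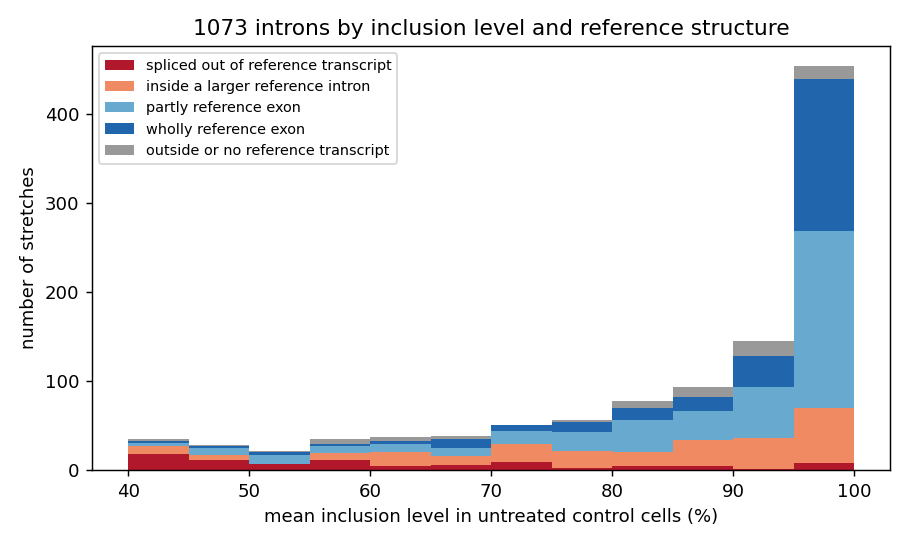
Number of introns (vertical axis) by mean inclusion level in untreated control cells (horizontal axis, %, in steps of 5), stacked by their place in the reference transcript. Introns that the reference removes sit mostly at the low end, with a median of 58.4%, and the 454 introns above 95% are mostly partly or wholly exonic.

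At the limit of the rule stood an intron of TMEM218 with a mean of 40%, one of SGSM3 with 40.2% and one of the ribosomal protein gene RPS9 with 40.3%. Just below it stood introns of BAX, a pore-forming protein of apoptosis, with 39.9%, of the zinc finger gene MZF1 with 39.8% and of ALKBH2, a DNA repair dioxygenase, with 39.7%. The 3 libraries of the MZF1 intron ranged from 28.3% to 53.9%, so the side of the limit on which it fell was within the spread between libraries.

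The introns with the most reads were pieces of abundant transcripts. They were, 1 per gene, in ACTB (β-actin), RPL8, GAPDH, RPL13, MYL6 (myosin light chain), RPS16, RPS2 and GNB2L1 (RACK1, a ribosome scaffold), with 43953 to 108966 reads over the 3 untreated control libraries. Levels in untreated control cells were 99.6% or more for 6 of the 8, 96.8% ± 0.20 (SD, n = 3) for RPL13 and 77.5% ± 1.83 for RPS16. The ACTB, RPL8 and RPL13 stretches lay wholly in a reference exon and the others in part. The RPS2 and GNB2L1 stretches also hold an annotated small RNA gene, whose reads would count as inclusion. None of the 7 that were tested passed the test between Ccis and Dcis, with adjusted p-values of 0.20 to 0.85 (edgeR quasi-likelihood test). RPL8 was not listed in that comparison.

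RNF113A mRNA was 19.8 ± 0.52 CPM (gene reads scaled to library size, SD, n = 3) in C, 16.0 ± 0.79 in D, 29.5 ± 1.98 in Ccis and 26.5 ± 2.64 in Dcis. C and D libraries did not overlap, but Ccis and Dcis did, and the difference between Dcis and Ccis had an adjusted p of 0.23 (edgeR), with a log2 fold change of -0.14 ± 0.09 (SE). Dcis libraries held 33859097 to 39414380 read pairs, of which 77.4% to 78.2% fell on genes in their own strand. The libraries of the other groups held 41490333 to 56071514 read pairs, of which 81.1% to 86.0% did. Depth and this share were thus lower in Dcis than in every other library, and their part in the results was not tested. Of 5 epithelial markers, KRT8 and KRT18 were at 1401 CPM or more in every library and CDH1 was at 31.6 to 195 CPM. EPCAM (3.68 to 97.9 CPM) and KRT19 (0.67 to 5.34 CPM) were lower. Only 1 of 4 alveolar markers, NAPSA, was above 1 CPM (1.49 to 4.48 CPM). The other alveolar markers were lower, with NKX2-1 at 0.062 to 0.59 CPM and SFTPC and SFTPB at 0.11 CPM or less. Of 11 markers of fibroblasts, endothelial and immune cells, COL1A1 (3.33 to 34.5 CPM) and CD68 (28.0 to 72.9 CPM) were above 1 CPM. The summed immune list was at 28.0 to 36.8 CPM in C, 30.3 to 31.6 in Ccis, 43.4 to 45.9 in D and 56.8 to 73 in Dcis, nearly all of it CD68, with PTPRC at 0 in 8 and CD3E in 11 of 12 libraries. The 5 epithelial markers, mostly KRT8 and KRT18, summed to 7108 to 12972 CPM in C, 3399 to 5193 in Ccis, 12881 to 14102 in D and 5228 to 5730 in Dcis. In bulk RNA, fewer cells of a kind and less RNA per cell cannot be told apart, and the part of these shifts in the results was not tested. Intronic reads made up 4.35% to 4.82% of genic reads in C, 5.75% to 6.63% in D, 4.65% to 7.16% in Ccis and 9.93% to 10.3% in Dcis.

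The splicing tables do not name their libraries, and letters (a, b, c) stand for the order in which each group lists them. The Ccis libraries differed widely. Over introns that the reference removes, the median level was 52.8%, 43.4% and 61.2% in Ccis a, b and c, against 62.6%, 57.2% and 59.4% in C, 63.8%, 62.7% and 65.4% in D and 61.3%, 67.7% and 65.8% in Dcis. Over the other introns that were not highly included, Ccis c had a median of 4.25% while Ccis a and b had 3.11% and 2.54%. Over the highly included introns that the reference removes, in contrast, Ccis b lay furthest from C and Ccis c within its range. Counts between Ccis and Dcis are given without each library in turn, but by structure only without Ccis c. Over introns inside larger introns the median was 86.6%, 80.9% and 87.9% in Ccis, and 92.3%, 90.6% and 92.3% in Dcis. For the partly and the wholly exonic introns, all libraries lay within 93.2% to 95.9% and 95.5% to 97.4%.

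**Figure D2:**
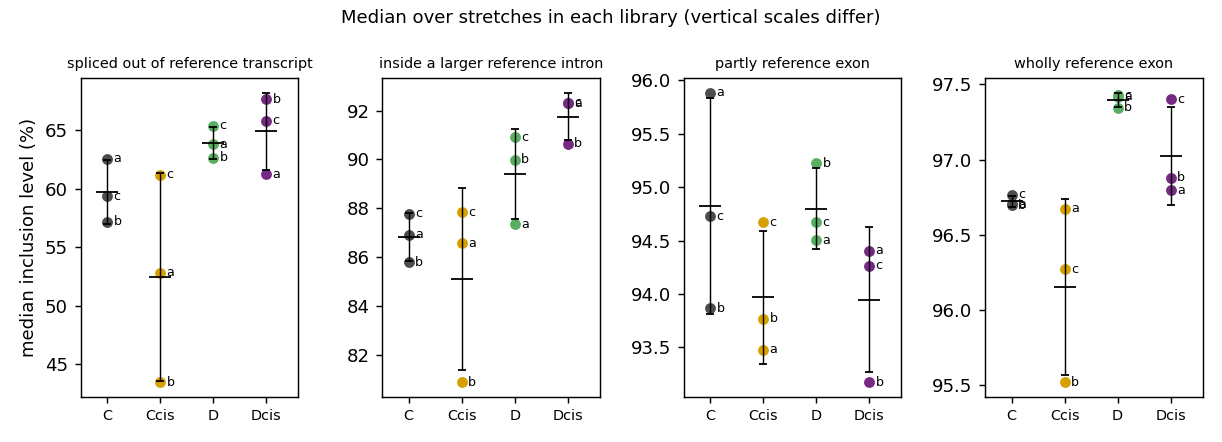
Median inclusion level (vertical axes, %, with a separate scale in each panel) over the introns of each structure in each library, with letters for the libraries and the mean ± SD of each group in black. The Ccis libraries spread from 43.4% to 61.2% for introns that the reference removes, and the Dcis libraries lay at 61.3% to 67.7%, the lowest of them next to Ccis c.

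The comparison of Ccis with Dcis asks what RNF113A depletion does to splicing while cells are under Cisplatin, and none of its libraries was used to choose the introns. Of the 1073, 82 were not listed in it and 20 had too few reads, which left 971. At an adjusted p under 0.05, 61 (6.28%) were higher in Dcis and 20 (2.06%) were lower, where 25.4% of all 3541 introns tested were higher and 0.65% lower. The share of rises among highly included introns was below the background. With a difference of at least 20.0 percentage points as well, 26 rose (2.68%) and 4 fell (0.412%), against 2.26% and 0.113% of all introns, a share of rises near the background. With DESeq2 in place of edgeR, 22 introns rose and 6 fell at an adjusted p under 0.05. With limma on the log2 ratio of the forms none passed, where 120 were higher and 52 lower at an unadjusted p under 0.05. Only an intron that starts at 20.0% or more can fall by that much, and all 4 such falls among the 3541 introns were in this set. The median difference was +1.21 points over the 971 introns and +1.97 points over all tested.

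The rises were divided unevenly between structures. At an adjusted p under 0.05, 14 of 84 introns that the reference removes rose and 2 fell, and 22 of 210 inside larger introns rose and 1 fell. Among the 362 partly exonic introns 10 rose and 9 fell, and among the 251 wholly exonic 8 rose and 5 fell. Of the other introns, which started low, 784 of 2157 that the reference removes (36.3%) and 14 of 41 inside larger introns (34.1%) rose, against 16.7% and 10.5% here, and these shares were not tested against each other. Without Ccis c the rises were 26, 33, 16 and 11 in the order of these structures, and the falls 1, 1, 7 and 5. The median difference was +9.45 points for introns that the reference removes and +4.55 points inside larger introns, against +0.17 and +0.34 points for the partly and the wholly exonic. The split by structure was made after values had been seen, and no test between the structures was run. The wholly exonic introns started at a median of 96.8%, which leaves little room for a rise. Without Ccis c, 93 of the 971 introns rose and 17 fell at an adjusted p under 0.05, and 49 rose and 3 fell by at least 20.0 points. In the same fit 1202 of the 2309 other introns (52.1%) rose, and 82 (3.55%) rose by at least 20.0 points. Leaving out Ccis c was the only removal of a library that raised the number of rises. Without Ccis a, Ccis b, Dcis a or Dcis b, 31, 35, 29 and 30 of the 971 introns rose and 10, 17, 12 and 18 fell at an adjusted p under 0.05. Without Dcis c, 26 rose and 6 fell, and 17 rose and 0 fell by at least 20.0 points.

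**Figure D3:**
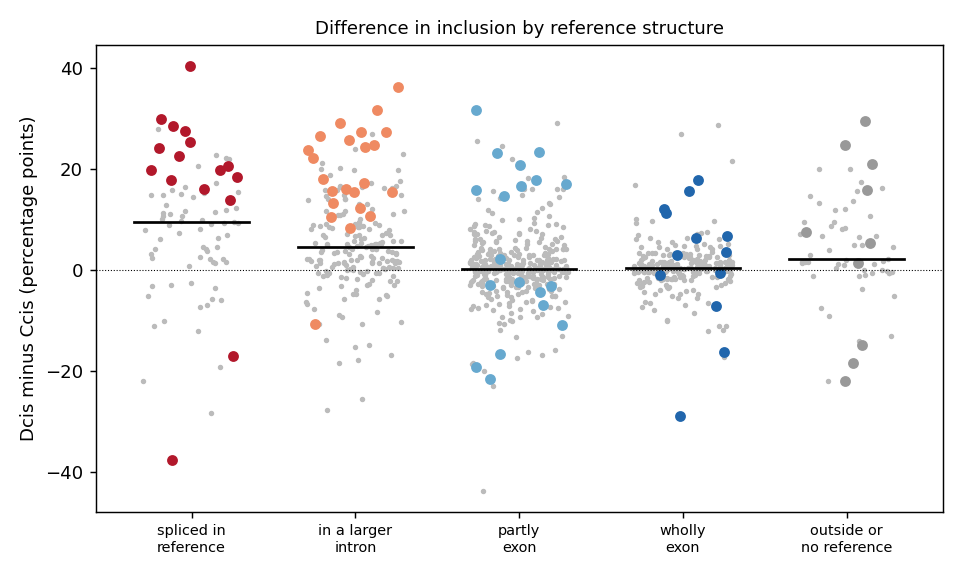
Difference in mean inclusion, Dcis minus Ccis, in percentage points (vertical axis) for each of the 971 introns, grouped by place in the reference transcript. Coloured points had an adjusted p under 0.05, grey points did not, and black bars mark medians, which stand at +9.45 and +4.55 points in the first and second columns and near 0 in the exonic ones.

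The 10 largest rises with at least 50 reads in each library are described one by one. Separate groups were common, since all Dcis libraries lay above all Ccis libraries in 40% of all 3541 introns tested. Among the 971 highly included introns this held for 135 (13.9%). EWSR1, an RNA-binding protein of the FET family, held an intron of 299 nt with levels of 26.3%, 30.7% and 57.6% in Ccis and 73.3%, 70.6% and 79.2% in Dcis. All 3 Dcis libraries lay above all Ccis libraries, of which c was the highest. The difference was +36.2 points (adjusted p = 0.0029), and the levels in C and D were 56.9% ± 5.78 and 65.1% ± 8.66. Between 54 and 134 reads covered it per library, its 5′ site had a score of 1.22, and without Ccis c the difference was +45.8 points.

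NME4, a mitochondrial nucleoside diphosphate kinase, had levels of 34.6%, 23.1% and 45.3% in Ccis and 68.6%, 66.3% and 63.1% in Dcis over its intron of 595 nt (+31.7 points, adjusted p = 7.9e-04). RPAIN, which carries replication protein A into the nucleus, went from 65.3%, 39.2% and 55.6% to 82.3%, 88.4% and 84.2% over 1988 nt that hold 1 reference exon (+31.6 points, adjusted p = 0.0051). Neither pair of groups overlapped. The NME4 intron was at 65.5% ± 9.93 in D, close to its level in Dcis, whereas the RPAIN stretch was at 65.7% ± 3.04 in D, below it.

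U2AF1L4, a relative of the splicing factor U2AF1 that reads the 3′ splice site, held 4 highly included introns. Intron 2 of 5 of its reference transcript, of 703 nt, had levels of 36.3%, 39.5% and 46.4% in Ccis and 67.5%, 72.3% and 72.1% in Dcis, without overlap (+29.9 points, adjusted p = 3.5e-04). A shorter intron of 386 nt with the same 5′ site went from 40.7% ± 4.92 to 64.4% ± 8.39 (+23.7 points, adjusted p = 0.0085), a call that was lost without Dcis a (adjusted p = 0.073) or Dcis c (adjusted p = 0.083). The remaining pair, of 87 and 90 nt, had 10 to 34 reads in a library and adjusted p-values of 0.56 (87 nt) and 0.92 (90 nt). The introns of this gene overlap in part and share reads, so they are not independent.

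CDK5RAP3, an adaptor of protein UFMylation, showed 33.9%, 28.2% and 42.6% in Ccis and 60.5%, 61.2% and 68.1% in Dcis for intron 7 of 13 of its reference transcript (+28.4 points, adjusted p = 3.3e-05). With 565 to 1124 reads per library it was among the better covered introns of the set. The intron of SNHG12, a host gene of small nucleolar RNAs, went from 41.6%, 23.2% and 44.1% to 65.5%, 61.9% and 69.9% (+29.5 points, adjusted p = 3.4e-05). In both genes the groups were separate, and the SNHG12 intron had been at 65.9% ± 11 in C.

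TRA2A, an SR-like activator of splicing, had levels of 63.7%, 42.0% and 71.0% in Ccis and 87.9%, 80.4% and 89.8% in Dcis for its intron of 280 nt (+27.1 points, adjusted p = 0.0017). The introns of 291 nt and 513 nt with the same 3′ site were at 66.3% ± 5.42 against 82.0% ± 0.60 and 86.9% ± 3.39 against 93.6% ± 1.32, with adjusted p-values of 0.061 and 0.19. LUC7L, a relative of a yeast U1 snRNP protein, went from 65.6%, 47.8% and 72.1% to 94.2%, 90.2% and 75.3% over 996 nt (+24.7 points, adjusted p = 0.0027). In both genes Ccis b was the lowest library, and without it the differences were +18.7 and +17.7 points, under the limit of 20.0 points, at adjusted p-values of 0.032 and 0.031. The LUC7L call was also lost without Dcis a (adjusted p = 0.054).

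Intron 6 of 10 of BTNL9, a butyrophilin-like membrane protein, had levels of 65.4%, 52.5% and 61.6% in Ccis and 96.0%, 86.0% and 79.9% in Dcis (+27.4 points, adjusted p = 0.0098). Its C libraries ranged from 34.8% to 78.1%, and without Dcis a the adjusted p was 0.096. An intron of PRICKLE4, a planar polarity gene, went from 76.5%, 62.8% and 67% to 95.6%, 96.3% and 88.2% (+24.6 points, adjusted p = 0.0033). The remaining 15 rises were smaller or had fewer reads. They spanned +20.6 to +40.3 points. The largest was in another BTNL9 intron, of 535 nt, with at least 46 reads in each library (edgeR adjusted p = 5.1e-04). They included OGG1, a base excision repair glycosylase, STUB1, a ubiquitin ligase, SIRT6, a deacylase, and DDIT3, which encodes CHOP. These genes were not picked by a fixed rule.

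**Figure D4:**
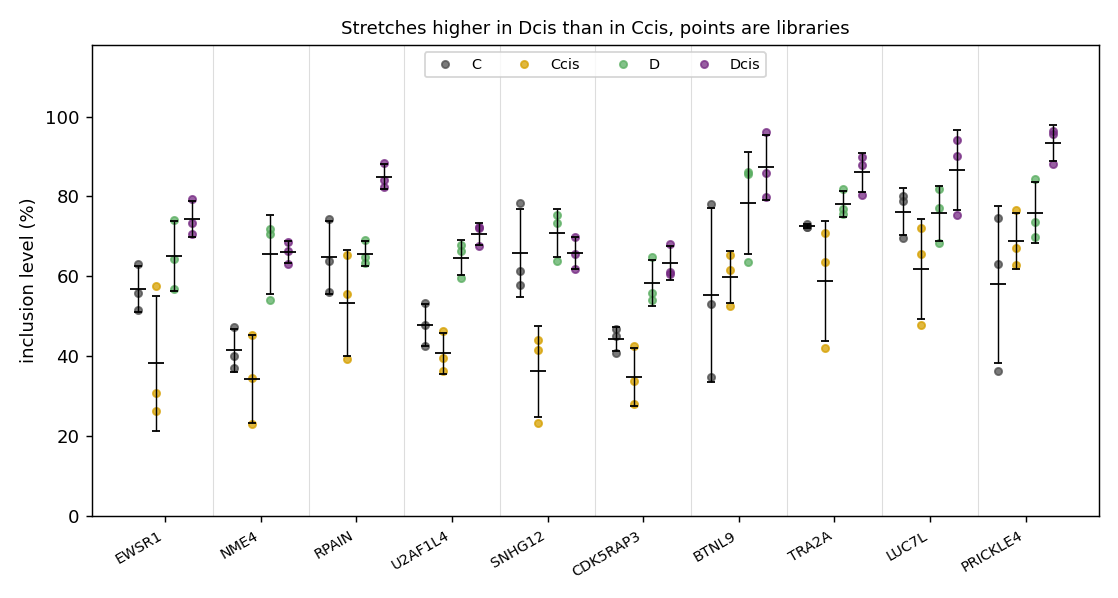
Inclusion level (vertical axis, %) in each library for the 10 largest rises from Ccis to Dcis with at least 50 reads in each library of the comparison. Points are libraries, coloured by group, and black bars give the mean ± SD. In all 10 genes the Dcis points lay above the Ccis points, as in 40% of all 3541 introns tested. The widest Ccis spread was in EWSR1.

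There were 4 introns that fell by at least 20.0 points. All Dcis libraries lay below all Ccis libraries in 52 of the 971 introns (5.36%) and in 2.12% of all introns tested. HEXDC, a hexosaminidase, fell from 80.8% ± 33.2 to 43.2% ± 12.7 (adjusted p = 0.011), but its Ccis libraries were at 42.5%, 100% and 100% and overlapped with Dcis at 52.4%, 28.7% and 48.5%. This intron begins with GC instead of GT. Its call was lost without Ccis b, Ccis c, Dcis b or Dcis c, at adjusted p-values of 0.080, 0.12, 0.067 and 0.053. A stretch within the 3′ untranslated exon of PRPF4B, a kinase that phosphorylates spliceosome proteins, was at 86.7%, 61.9% and 82.5% in Ccis and 53.6%, 63.2% and 27.5% in Dcis (-28.9 points, adjusted p = 0.0052). The groups overlapped by 1 library, and the call was lost without Ccis a (adjusted p = 0.059) or Dcis c (adjusted p = 0.17).

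TAF15, another FET protein, had levels of 87.2%, 85.7% and 85.3% in Ccis and 55.8%, 73.5% and 62.7% in Dcis for an intron of 256 nt (-22.0 points, adjusted p = 0.031). The groups did not overlap, but the call was lost without Ccis a, Ccis b, Dcis a or Dcis c, at adjusted p-values of 0.096, 0.055, 0.17 and 0.093. THOC6, a subunit of the complex that couples splicing to mRNA export, went from 91.4%, 97.0% and 95.8% to 73.8%, 77.5% and 67.6% over a stretch of 262 nt with 1 reference exon (-21.8 points, adjusted p = 7.1e-04). Without Dcis c its difference was -19.1 points, with an adjusted p of 0.015. The intron of EWSR1 rose and that of TAF15, of the same family, fell.

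A list of 40 genes known for introns detained in the nucleus, mostly splicing factors, was followed on its own. Of these, 23 genes had introns with enough reads and 9 held 17 highly included introns. Of the 16 tested between Ccis and Dcis, 5 rose, none fell at an adjusted p under 0.05, and 11 did not pass. Of all introns tested 25.4% rose, and nothing particular to the list is read from its count. The median difference was +5.67 points, beside +1.21 points over the whole set and +1.97 points over all introns. Those of TRA2A (280 nt), LUC7L and U2AF1L4 (386 and 703 nt) already described were 4 of the 5. Values for CLK2, METTL3, HNRNPH1 and SRSF5 differed between Dcis and Ccis by -5.37 to +4.48 points, at adjusted p-values of 0.17 or more, and the HNRNPD intron was not listed.

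The comparison of D with Dcis asks what Cisplatin does to depleted cells. It shares the Dcis libraries with the comparison above, so the 2 are not independent. Of the 1073 introns 1002 were tested, 57 were not listed and 14 had too few reads. At an adjusted p under 0.05, 20 (2.00%) were higher in Dcis and 53 (5.29%) lower, where 13.3% of all 3486 introns were higher and 2.35% lower. With at least 20.0 points, 6 rose (0.599%) and 16 fell (1.60%), against 0.631% and 0.488% of all introns. Of all introns 17 fell by that much, 16 of them in this set. Only an intron at 20.0% or more in D can do so. The other introns had medians of 4.50% to 5.06% in the D libraries, so nothing particular to the set is read from these falls. DESeq2 gave 3 rises and 8 falls of at least 20.0 points and limma 1 and 2. At an adjusted p under 0.05 alone, DESeq2 gave 8 and 24 and limma 7 and 10. The median difference was +0.12 points over the set and +0.56 points over all introns. By structure, 1 of 86 introns that the reference removes rose and 7 fell, 7 of 211 inside larger introns rose and 5 fell, 7 of 386 partly exonic rose and 18 fell, and 3 of 255 wholly exonic rose and 16 fell.

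The largest falls with at least 50 reads in each library were in ANAPC4, a subunit of the anaphase-promoting complex, where D was at 100%, 86.8% and 74.1% and Dcis at 52.6%, 55.1% and 28.4% (-41.6 points, adjusted p = 0.0016). The TRIM27 ubiquitin ligase stretch went from 81.6%, 100% and 57.1% to 35.3%, 51.3% and 34.5% (-38.9 points, adjusted p = 0.013). Both hold 1 reference exon, and neither pair of groups overlapped. All Dcis libraries lay below all D libraries in 104 of the 1002 introns tested (10.4%) and in 6.43% of all 3486 introns. The minimum of 50 reads counts both forms. Inclusion reads are divided by length, so in stretches of 2075 nt (ANAPC4) and 4142 nt (TRIM27) 1 skipping read weighs as much as many inclusion reads. The levels of such stretches can rest on few skipping reads. Neither call was kept by DESeq2 (adjusted p = 0.085 and 0.17). The ANAPC4 call was lost without Dcis c (adjusted p = 0.064), and the TRIM27 call without D a, D b, Dcis a or Dcis c, at adjusted p-values of 0.060, 0.15, 0.061 and 0.055.

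The PRPF4B stretch of the 3′ untranslated exon was at 81.0%, 80.6% and 90.5% in D and fell by 35.9 points to the Dcis levels given above (adjusted p = 2.8e-05), here without overlap. POLR2G, a subunit of RNA polymerase II, fell from 59.3%, 64.1% and 68.5% to 31.7%, 45.5% and 25.8% over an intron of 637 nt (-29.6 points, adjusted p = 1.5e-04). In AAMP, a WD repeat protein, all 3 D libraries were at 100% and Dcis at 85.4%, 69.8% and 61.6% (-27.8 points, adjusted p = 1.8e-04). These calls held without each library in turn. POLR2G stood at 43.3% ± 10.9 in C and 30.5% ± 9.20 in Ccis and was highest in D.

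The TAF15 intron fell as well, from 90.8% ± 5.06 in D to 64.0% ± 8.95 in Dcis (-26.8 points, adjusted p = 0.0025). The falls with the most reads, which were picked after their values were seen, were in TMEM41B (-25.0 points, adjusted p = 5.5e-07, at least 927 reads in each library) and C1orf63 (-25.5 points, adjusted p = 6.8e-08, at least 734 reads). The other 8 falls spanned -43.9 points in TMEM91 to -20.2 points in SETMAR. Rises in this comparison were fewer. ACADVL, the first enzyme of long-chain fatty acid oxidation, rose from 42.1%, 42.5% and 46.2% to 74.2%, 69.2% and 77.5% over a stretch with 1 reference exon (+30.1 points, adjusted p = 2.4e-05), and the call held without each library in turn. FAM200B, whose stretch lies wholly in an exon, was at 44%, 36.9% and 46.7% in D and 61.2%, 66.2% and 67.3% in Dcis (+22.4 points, adjusted p = 6.8e-04), and +19.6 points without D b (adjusted p = 0.013). MRPS22, a mitochondrial ribosomal protein, was at 66.5% ± 4.10 and 93.7% ± 6.24 (+27.3 points, adjusted p = 0.011), and the call was lost without D a, Dcis a or Dcis b, at adjusted p-values of 0.055, 0.077 and 0.058. The methyltransferase gene N6AMT1 was at 48.2% ± 3.67 and 74.5% ± 13.0 over 3572 nt of its 3′ untranslated exon (+26.3 points, adjusted p = 0.046), a call that was lost without any one of the 6 libraries, at adjusted p-values of 0.057 to 0.24.

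**Figure D5:**
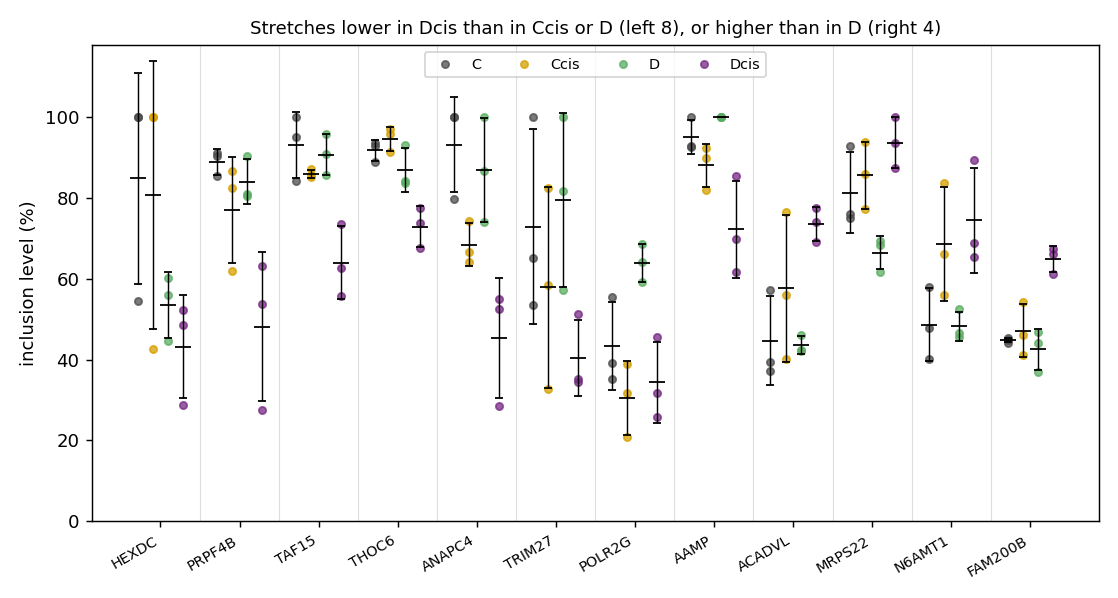
Inclusion level (vertical axis, %) in each library for the introns that fell from Ccis to Dcis (HEXDC, PRPF4B, TAF15, THOC6), those with the largest falls from D to Dcis (ANAPC4, TRIM27, POLR2G, AAMP) and the rises from D to Dcis (right). Points are libraries and black bars the mean ± SD, which can pass 100%. Only HEXDC and PRPF4B have Dcis points that overlap with Ccis among the first 4.

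Of the list of 40 genes, 16 introns were tested between D and Dcis, none rose and 2 fell at an adjusted p under 0.05, both by less than 20.0 points. HNRNPH1, an hnRNP that binds G-rich sequence, was at 66.2%, 63.4% and 64.5% in D and 52.3%, 56.1% and 47.6% in Dcis over 802 nt with 1 reference exon (-12.7 points, adjusted p = 8.2e-04). SRSF5, an SR protein, was at 96.4%, 97.3% and 90.0% in D and 74.8%, 90.4% and 86.9% in Dcis over an intron of 259 nt (-10.5 points, adjusted p = 7.2e-04). The HNRNPH1 groups were separate, whereas those of SRSF5 overlapped.

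The contrasts that use the C libraries are given as levels only, since C values chose the introns. From C to D, the introns of NME4 (41.4% to 65.5%), U2AF1L4 (47.9% to 64.6%, 703 nt) and CDK5RAP3 (44.3% to 58.3%) were higher in D, while those of TRA2A (72.6% to 78.1%) and LUC7L (76.2% to 75.7%) differed by less. From C to Ccis, the SNHG12 intron was at 65.9% and 36.3%, TRA2A at 72.6% and 58.9%, and U2AF1L4 at 47.9% and 40.7%. A choice of high levels in C by itself favours lower levels in the other groups.

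The expression of the host genes was examined with read counts per gene. Of 815 host symbols, 799 matched the count tables and 790 were tested. Between Ccis and Dcis, 29 host genes (3.67%) rose and 10 (1.27%) fell at least 2-fold at an adjusted p under 0.05, against 6.9% and 5.42% of all 15352 genes. Between D and Dcis 63 (7.97%) rose and 28 (3.54%) fell, against 11.6% and 11.5%. Among the genes named for rises of their introns, BTNL9 rose by 1.5 on the log2 scale (adjusted p = 1.0e-05), U2AF1L4 by 0.63 (adjusted p = 0.0011) and CDK5RAP3 by 0.47 (adjusted p = 4.1e-04). TRA2A fell by 0.26 (adjusted p = 0.0047), and EWSR1, NME4, RPAIN, SNHG12, LUC7L and PRICKLE4 did not pass, with log2 changes of -0.14 to 0.19.

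Intronic against exonic reads over whole genes differed between Ccis and Dcis in most host genes. At an adjusted p under 0.05, 595 of 707 host genes with enough reads (84.2%) had a higher ratio in Dcis than in Ccis and 1 a lower one, against 82.4% and 0.118% of all 10137 genes. The median log2 ratio was 0.92 for host genes and 0.97 for all genes. The shares were near the background. The genes with falling introns also had higher ratios, by 1.93 on the log2 scale in THOC6 (adjusted p = 5.9e-06), 1.36 in TAF15 (adjusted p = 9.7e-05), 0.93 in PRPF4B (adjusted p = 0.0023) and 0.70 in HEXDC (adjusted p = 0.010). These gene-wide reads include reads of the introns described here, and how far the gene-wide rise sets the inclusion levels was not tested.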

How the data were processed

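RNA sequencing libraries (12, stranded, paired reads) were made from poly(A) RNA of A549 cells. The authors demultiplexed and trimmed reads (bcl2fastq 2.17, cutadapt), removed ribosomal, transfer and mitochondrial RNA reads with Bowtie2, shortened reads to 73 nt and mapped these on hg19 by STAR 2.5.2b. The deposited gene counts are raw read pairs per gene from STAR, and the deposited exonic and gene-wide counts are raw reads from HTSeq on Gencode v19. The deposited splicing table holds raw inclusion and skipping reads of each library from rMATS. Inclusion reads are any reads on the intron or its borders, those of exons within it included, and skipping reads are those over its exact junction. The strand setting of that count is not given in the sources used here. Columns of p-values and differences made by the authors were not used, nor were the other splicing classes and the merged annotation.

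Inclusion was computed as inclusion reads per length of the unspliced form (intron length plus 72) over the sum with skipping reads per 72. The reads of the 3 Dcis libraries were identical in 3945 of 3999 introns listed in 2 comparisons. Introns with at least 10 reads in each of the 6 libraries of a comparison were tested with edgeR 4.0.16 (quasi-likelihood test on the reads of both forms, with a term for each library and an interaction of form with group), with Benjamini-Hochberg adjustment over all introns of the table. An intron was called at an adjusted p under 0.05 and a difference of at least 0.2 in mean inclusion. Host genes were tested on counts of the gene strand (edgeR, TMM scaling), with at least 2-fold for a call. Intronic reads were gene-wide minus exonic counts and were tested as a ratio with at least 10 reads of each kind. Rows that name no gene were left out of library sizes, and 77.4% to 86.0% of read pairs were assigned. Each model was also run on simulated data. The spread between simulated libraries was set beforehand and not fitted to these libraries, so the simulations do not show how the calls here hold.

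Members and gene lists were chosen with earlier results of these data known. Named introns were the 10 largest rises and the falls between Ccis and Dcis with 50 reads or more in each library, up to 5 rises and falls between D and Dcis, the 8 with most reads, 3 on each side of the limit and those in 40 genes known for detained introns. Introns were named after the reference transcript of Gencode v44, lifted to GRCh37. Same-numbered libraries did not deviate together in every pair over 9778 genes (r = -0.20, 0.083 and -0.027 for Dcis and Ccis, and 0.41, -0.073 and 0.29 for Dcis and D), so the numbers were not taken as pairs. Alternatives covered the read minimum, the limits, DESeq2 1.42.0, limma 3.58.1 and leaving out each library. Some items are not reported here.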

Additional observations from a re-analysis of the deposited data

How the results depend on the processing

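No paired analysis was possible because the splicing tables do not name the replicate of each library. For host genes, the replicate block gave 41 calls between Ccis and Dcis (39 without it), 91 between D and Dcis (91) and 604 for intronic against exonic reads (596), and the numbers only name samples.

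Of all highly included introns, 319 had no base in a reference exon, an alternative chosen after seeing the data. Among these, 39 passed between Ccis and Dcis (36 higher, 3 lower), and 20 passed between D and Dcis (8 higher, 12 lower), 6 of them by 20.0 points or more. Between Ccis and Dcis, the 81 introns at an adjusted p under 0.05 became 28 with DESeq2 and 0 with limma (120 higher and 52 lower at an unadjusted p under 0.05), and 32 to 110 without 1 library. The 30 calls became 0 with limma, 64 with a limit of 0.1, 5 with a limit of 0.3 and 17 (without Dcis c) to 52 (without Ccis c) without 1 library. Between D and Dcis, the 73 introns became 32 with DESeq2 and 17 with limma, and 52 to 61 without 1 library. The 22 calls became 11 with DESeq2, 3 with limma, 52 with a limit of 0.1, 7 with a limit of 0.3 and 16 to 24 without 1 library. The cause was not tested.

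Host gene calls between Ccis and Dcis ranged from 25 (without shControl_cisplatin replicate 2) to 40 without 1 library. Leaving out each library in turn reversed the direction of none of the 15 named introns called between Ccis and Dcis. The same held for the 10 called between D and Dcis. Direction was not tested by DESeq2, limma or a higher read minimum, where the difference came from the same mean inclusion levels. Of the 15, DESeq2 kept 13 and limma 0. Of the 10, DESeq2 kept 6 and limma 2. DESeq2 lost PRPF4B (adjusted p = 0.068) and TAF15 (adjusted p = 0.066) between Ccis and Dcis, and ANAPC4 (0.085), TRIM27 (0.17), MRPS22 (0.064) and N6AMT1 (0.20) between D and Dcis. In introns with few skipping reads a single read can decide the difference, and depth limits these. Their levels lie near 100% in short introns but can lie well below it in long ones, since inclusion reads are divided by length.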
